A study of Mus musculus with 8 samples.

Results

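Fatty acid synthesis in the pancreas was followed through 10 genes, Fasn, Acaca, Acly, Scd1, Scd2, Elovl6, Me1, Srebf1, Acsbg1 and Mlxipl. They were listed for their place in the pathway with earlier results of these data known. Counts of members below are therefore not those of a list made independently of the data. All 10 of them were found among the 15047 gene symbols of the expression table. The RNA came from whole pancreas of 8 male mice in 3 groups. LFD were 3 C57BL/6 wild-type mice fed a low-fat diet, and HFD were 3 C57BL/6 wild-type mice fed a diet with 60% of calories from fat, a model of diet-induced obesity. ob/ob were 2 C57BL/6J mice without functional leptin, kept on standard chow, a model of genetically induced obesity. Feeding started at 4 weeks of age, and 10 weeks of diet are recorded for the LFD and HFD mice. The age at which the pancreas was taken is not stated for these 8 mice. According to the study, every group also carried transplanted mT organoids, which are cultures grown from a mouse pancreatic tumour, while the sample labels name only pancreas. The ob/ob group therefore differed from LFD in genotype and in diet, and these cannot be told apart. The study writes the wild-type strain without the J in its methods and with it, as for ob/ob, in its results. The ob mutation stops the Lep protein early without deleting the gene, so Lep RNA is no check of the genotype.

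De novo lipogenesis builds fatty acids from the carbon of sugars. Acly splits cytosolic citrate into acetyl-CoA, Acaca carboxylates it to malonyl-CoA, and Fasn joins these units into palmitate with NADPH that Me1 helps to supply. Elovl6 lengthens palmitate, Scd1 and Scd2 put in the first double bond, and acyl-CoA synthetases such as Acsbg1 activate long-chain fatty acids, while the transcription factors Srebf1 (SREBP-1) and Mlxipl (ChREBP) switch on much of the pathway in response to insulin and to carbohydrate.

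Values are regularized log (rlog) values, which are on a log2 scale, so that a difference of 1 is a doubling. They carry no correction for transcript length, and levels are therefore compared between mice and not between genes. Differences were tested with limma across all 15047 genes, and adjusted p is the Benjamini-Hochberg value over all of them. HFD and ob/ob mice were each set against LFD, against one another, and jointly against LFD, and in none of these 4 comparisons did any gene of the table reach an adjusted p under 0.05 (0 of 15047, or 0%), although 2985 genes (HFD against LFD), 2831 (ob/ob against LFD), 588 (between the obese groups) and 3825 (both obese groups against LFD) had an unadjusted p under 0.05. The values below describe these 8 mice, and no member was called changed.

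In HFD mice the members did not all lie on the same side of LFD. Acsbg1 and Me1 were higher than in LFD mice, by 7.83-fold and 2.30-fold, while Scd1 was lower by 2.45-fold and Fasn by 1.34-fold. In ob/ob mice the same 2 genes were higher by smaller amounts, Scd1 was again lower, and Scd2 was 1.41-fold higher. The remaining members differed from LFD by at most 1.45-fold in either comparison.

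**Figure D1:**
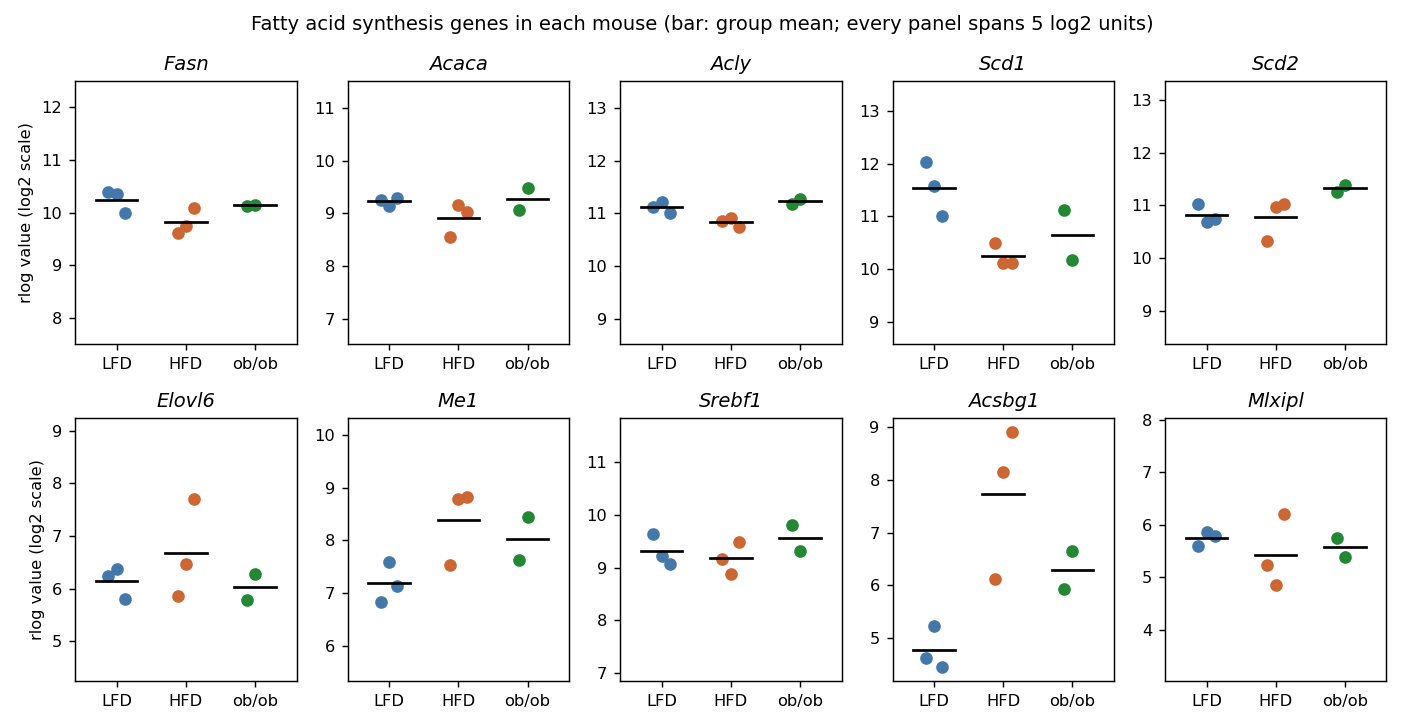
rlog value (log2 scale, y axis) of each fatty acid synthesis gene in 3 LFD, 3 HFD and 2 ob/ob mice (x axis), 1 point per mouse, with a bar at the group mean. Every panel spans the same number of log2 units. Acsbg1 covers the widest range, from 4.46 to 8.91, and Acly the narrowest, from 10.75 to 11.28.

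Of the 10 members, 3 had a difference above 0 in HFD against LFD, as did 52.4% of all genes, and 7 were below 0, with a median of -0.20 beside 0.029 over all genes. An unadjusted p under 0.05 was found for 4 members, Acsbg1 and Me1 with higher values and Scd1 and Fasn with lower ones, whereas 19.8% of all genes had one, 11.5% higher and 8.35% lower. The values of the 2 groups did not overlap for 3 members, against 25.2% of all genes: Acsbg1 was higher (12.9% of all genes were), and Scd1 and Acly were lower (12.3% were). In ob/ob against LFD, 6 members were above 0, as were 53.1% of all genes, and 4 below, with a median of 0.076 beside 0.039 over all genes. There, 1 member (Scd1) had an unadjusted p under 0.05, against 18.8% of all genes, and 3 members, Acsbg1, Me1 and Scd2, did not overlap between the groups, against 45.9% of all genes in either direction and 24.1% with higher values. In both obese groups against LFD, 3 members had an unadjusted p under 0.05 (25.4% of all genes did), and Acsbg1 alone lay higher in all 5 obese mice than in all LFD mice (9.4% of all genes did). These comparisons share the LFD mice. The share of members without overlap was thus near or below that of the whole table in each of these comparisons, while the 4 of 10 members with an unadjusted p under 0.05 in HFD against LFD were above it and lay in both directions.

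The 3 enzymes that make palmitate gave small differences. Fasn (chr11:120805846-120824547 of GRCm38, minus strand), the fatty acid synthase itself, had rlog values of 10.39, 10.35 and 10.00 in LFD, 9.62, 9.75 and 10.09 in HFD, and 10.13 and 10.15 in ob/ob mice. HFD replicate 3 lay above LFD replicate 3, so these groups overlapped, and both ob/ob mice lay within the LFD range. Fasn was lower in HFD than in LFD by 1.34-fold, a log2 difference of -0.42 ± 0.18 (SE) with an adjusted p of 0.249 (limma).

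Acly (chr11:100476353-100528000, minus strand), which supplies cytosolic acetyl-CoA, had the tightest values of all members. They were 11.12, 11.22 and 11.00 in LFD, 10.86, 10.92 and 10.75 in HFD, and 11.17 and 11.28 in ob/ob mice. All 3 HFD mice lay below every other mouse. The log2 difference of HFD from LFD was only -0.27, a 1.21-fold lower level, with a 95% interval from -0.62 to 0.076 and an adjusted p of 0.339 (limma). Between ob/ob and HFD it was 0.38, or 1.31-fold, with a 95% interval from -0.0044 to 0.77 and an adjusted p of 1.00 (limma).

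Acaca (chr11:84129672-84401651, plus strand), the carboxylase that makes malonyl-CoA, had values of 9.25, 9.14 and 9.29 in LFD, 8.55, 9.15 and 9.02 in HFD, and 9.06 and 9.47 in ob/ob mice. One mouse, HFD replicate 1, stood below the rest, while HFD replicate 2 lay inside the LFD range. The log2 differences from LFD were -0.32 in HFD (95% interval -0.78 to 0.14) and 0.040 in ob/ob (95% interval -0.47 to 0.55), with adjusted p-values of 0.387 and 0.934 (limma). Without HFD replicate 1 the HFD difference was -0.14, and with the mean of 29 acinar genes as a covariate it was -0.56 (adjusted p 0.366, limma).

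For 8 of the 10 members the RefSeq promoter table of GRCm38.p6 held an entry, and the 250 bases before the RefSeq start were searched on both strands for CCAAT boxes (CCAAT), GC boxes (GGGCGG), E-boxes (CACGTG) and a sterol regulatory element (TCACNCCAC). The promoters of Fasn and Acly are shown because their genes had the lower, narrow values in HFD mice, and that of Acsbg1 because its gene had the largest difference of the members. They are printed 5′ to 3′ on the strand of the gene, for chr11:120824548-120824797, chr11:100528001-100528250 and chr9:54661886-54662135, all on the minus strand. Capitals mark CCAAT boxes in Fasn and Acsbg1 and GC boxes in Acly, read in either direction.
Fasn: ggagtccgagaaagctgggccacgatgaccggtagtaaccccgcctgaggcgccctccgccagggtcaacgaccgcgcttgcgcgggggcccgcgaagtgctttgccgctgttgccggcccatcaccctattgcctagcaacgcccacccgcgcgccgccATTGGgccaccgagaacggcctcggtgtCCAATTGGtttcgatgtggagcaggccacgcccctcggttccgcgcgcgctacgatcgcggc
Acly: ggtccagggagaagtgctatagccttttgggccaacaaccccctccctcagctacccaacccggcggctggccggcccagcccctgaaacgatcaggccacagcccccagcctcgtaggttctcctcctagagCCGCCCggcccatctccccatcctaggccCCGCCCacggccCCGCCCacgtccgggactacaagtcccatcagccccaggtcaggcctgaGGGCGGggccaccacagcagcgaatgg
Acsbg1: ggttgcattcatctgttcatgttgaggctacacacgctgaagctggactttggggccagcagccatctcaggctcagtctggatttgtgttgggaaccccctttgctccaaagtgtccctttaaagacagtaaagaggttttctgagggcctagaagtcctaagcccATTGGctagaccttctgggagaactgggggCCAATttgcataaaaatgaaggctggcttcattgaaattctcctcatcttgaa
Fasn held 3 CCAAT matches, of which the last 2 overlap as 1 palindrome, Acsbg1 held 2 and Acly held 4 GC boxes. A CCAAT box was present in 33.8% and a GC box in 32.7% of the 32851 promoters of the table. The sterol element, found in 1.05% of all promoters, was in none of the 8 member windows, and the E-box, found in 6.02%, was only in that of Mlxipl. The entry of Acaca starts 65766 bases from the Gencode start and may stand for an inner promoter. Matches of letters are not measurements of binding.

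The desaturases did not go together. Scd1 (chr19:44394455-44407879, minus strand) and Scd2 (chr19:44293674-44306864, plus strand) are neighbours, 87590 bases apart, and both make oleate and palmitoleate from saturated acyl-CoA. Scd1 is the main form of liver and adipose tissue, while Scd2 is better known from brain and from early life. Their sequences are alike, so how Salmon divided shared reads between them adds an error that the values do not show.

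Scd1 had values of 12.03, 11.58 and 11.00 in LFD, 10.49, 10.12 and 10.11 in HFD, and 11.13 and 10.16 in ob/ob mice. All 3 HFD mice lay below all LFD mice, while ob/ob replicate 1 lay within the LFD range and ob/ob replicate 2 beside the HFD mice. The log2 difference of HFD from LFD was -1.29 ± 0.32 (SE), with an adjusted p of 0.179 (limma). That of ob/ob from LFD was -0.89 ± 0.36, with an adjusted p of 0.249 (limma), and it was -1.37 without ob/ob replicate 1 and -0.41 without ob/ob replicate 2. ob/ob and HFD mice differed by 0.40 with a 95% interval from -0.42 to 1.23.

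Scd2 had values of 11.03, 10.69 and 10.75 in LFD, 10.33, 10.97 and 11.02 in HFD, and 11.25 and 11.39 in ob/ob mice. Both ob/ob mice were above all the others. The log2 difference was 0.50 against LFD (adjusted p 0.296, limma) and 0.55 against HFD (adjusted p 1.00, limma). Between HFD and LFD it was -0.046, with a 95% interval from -0.55 to 0.46.

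Subtracting Scd2 from Scd1 within each mouse set the groups apart, a comparison that was chosen after the values had been seen and is given without a test. The difference was 1.01, 0.90 and 0.26 in LFD, 0.17, -0.85 and -0.91 in HFD, and -0.11 and -1.23 in ob/ob mice. Every obese mouse lay below every LFD mouse, although HFD replicate 1 was only just under LFD replicate 3. The size of this difference within a mouse depends on the lengths of both transcripts, so only its shift between mice can be read. The mean of the LFD mice was 0.72 ± 0.40 (SD, n = 3). The HFD mice averaged -0.53 ± 0.60 (SD, n = 3), and the ob/ob pair -0.67 ± 0.79 (SD, n = 2).

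**Figure D2:**
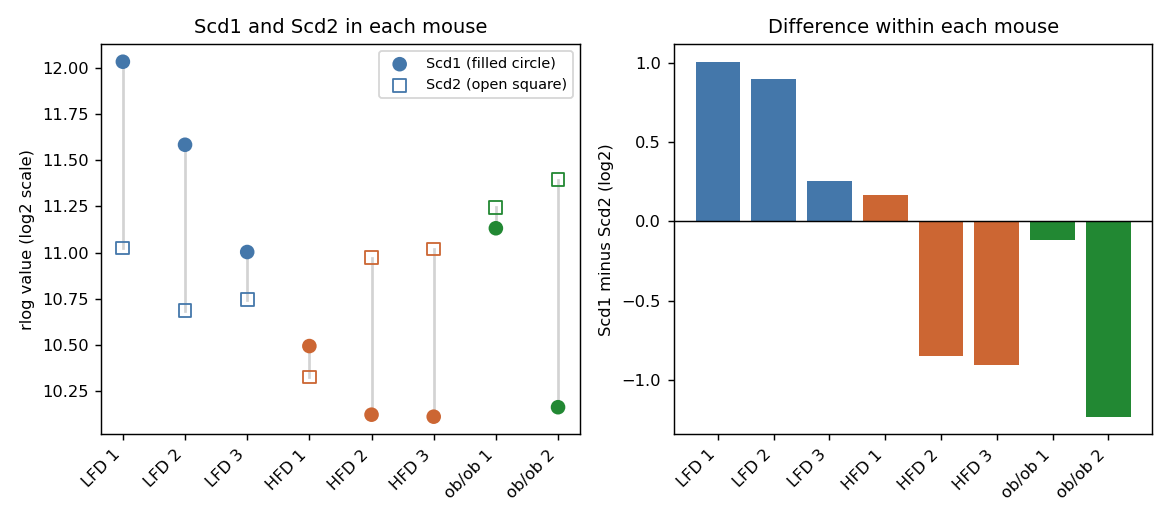
Left, rlog values (log2 scale) of Scd1 (filled circles) and Scd2 (open squares) in each of the 8 mice, with LFD in blue, HFD in orange and ob/ob in green. Right, Scd1 minus Scd2 (log2) in the same mice, which is between 0.26 and 1.01 in LFD mice and between -1.23 and 0.17 in the 5 obese mice.

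Elovl6 (chr3:129532355-129638495, plus strand), the elongase that turns palmitate into stearate, had values of 6.24, 6.38 and 5.79 in LFD, 5.85, 6.46 and 7.71 in HFD, and 5.78 and 6.27 in ob/ob mice. One mouse, HFD replicate 3, was far above the other 7, which lay between 5.78 and 6.46. The log2 difference of HFD from LFD was 0.54 with a 95% interval from -0.48 to 1.56 (adjusted p 0.506, limma), and that of ob/ob from LFD was -0.11 with an interval from -1.25 to 1.03. The HFD difference was 0.020 without HFD replicate 3 and 0.95 without HFD replicate 1. With the acinar mean as a covariate the difference was -0.17 in HFD and -0.88 in ob/ob (adjusted p 0.454, limma).

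Me1 (chr9:86581371-86695953, minus strand), the cytosolic malic enzyme, which yields NADPH while it turns malate into pyruvate, had values of 6.83, 7.59 and 7.13 in LFD, 7.53, 8.79 and 8.83 in HFD, and 7.62 and 8.45 in ob/ob mice. HFD replicate 1 lay just under the highest LFD mouse, and the other 4 obese mice lay above all LFD mice. The log2 difference of HFD from LFD was 1.20 ± 0.39 (SE), with an adjusted p of 0.195 (limma). That of ob/ob from LFD was 0.85 ± 0.44, with an adjusted p of 0.315 (limma), and it was 0.44 without ob/ob replicate 2.

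Acsbg1 (chr9:54604877-54661870, minus strand), an acyl-CoA synthetase best known from brain, adrenal gland and gonads, had the largest difference of the members. Its values were 4.61, 5.22 and 4.46 in LFD, 6.13, 8.16 and 8.91 in HFD, and 5.94 and 6.65 in ob/ob mice. All 5 obese mice lay above all LFD mice, and HFD replicate 1 lay within the ob/ob range. Over the whole table, the HFD against LFD difference of Acsbg1 was above that of 99.97% of the genes.

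For Acsbg1 the log2 difference of HFD from LFD was 2.97 ± 0.64 (SE), a 7.83-fold higher level with a 95% interval from 1.52 to 4.42 and an adjusted p of 0.175 (limma). That of ob/ob from LFD was 1.53 ± 0.71, or 2.89-fold, with an adjusted p of 0.280 (limma). Between ob/ob and HFD the difference was -1.44, with an interval from -3.06 to 0.18, and the groups overlapped. rlog draws values of genes with few reads together, so the fold of a gene as low as Acsbg1 in LFD mice may be understated.

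**Figure D3:**
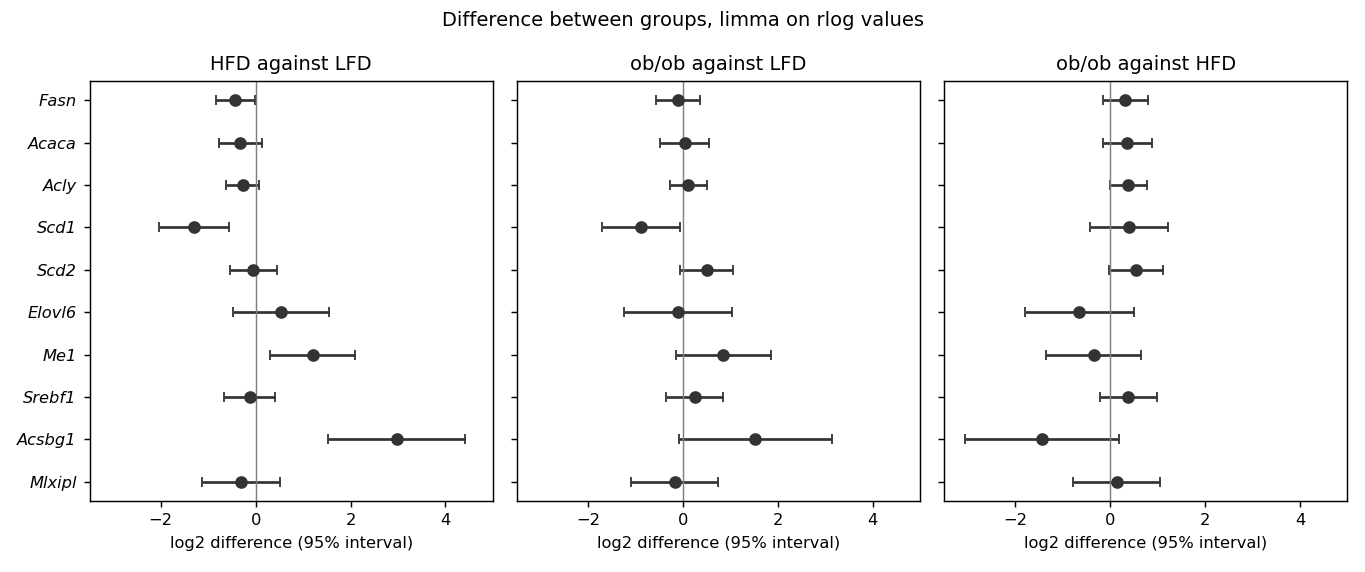
Log2 difference (x axis) of each fatty acid synthesis gene between HFD and LFD, between ob/ob and LFD and between ob/ob and HFD, with 95% intervals from limma. The intervals of Acsbg1 (1.52 to 4.42), Me1, Scd1 and Fasn leave out 0 in HFD against LFD, and that of Scd1 does so in ob/ob against LFD; none of these has an adjusted p under 0.05.

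The calls for these genes changed when single mice were left out. HFD replicate 1 lay nearer to the LFD mice than the other HFD mice did for Scd1, Me1 and Acsbg1. Without it, the adjusted p of HFD against LFD was 0.00806 for Acsbg1 (log2 difference 3.77), 0.0171 for Me1 (1.63) and 0.0312 for Scd1 (-1.42) by limma, with 2 HFD mice left. At the same time 2812 genes, 18.7% of the table, had an adjusted p under 0.05 in that comparison. The unadjusted p of Scd1 was 0.00333 with all mice and 0.00352 without HFD replicate 1 (limma). The fall in the adjusted p of Scd1 thus came from the rest of the table. For both obese groups against LFD without HFD replicate 1, the adjusted p-values were 0.0113 for Acsbg1, 0.0173 for Me1 and 0.0289 for Scd1, with 22.1% of all genes past the threshold. With all 8 mice these values were 0.107, 0.141 and 0.108, for log2 differences of 2.25, 1.03 and -1.09. Without ob/ob replicate 1, Scd1 had an adjusted p of 0.0471 in both obese groups against LFD (log2 difference -1.33), as 1 of 476 genes past the threshold.

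The regulators showed little. Srebf1 (chr11:60199089-60222581, minus strand) had values of 9.65, 9.22 and 9.06 in LFD, 9.17, 8.88 and 9.49 in HFD, and 9.81 and 9.31 in ob/ob mice. All 3 groups overlapped, and the log2 differences from LFD were -0.13 in HFD (95% interval -0.66 to 0.41) and 0.25 in ob/ob (-0.35 to 0.85), with adjusted p-values of 0.780 and 0.599 (limma). These values sum over the transcripts of the gene, and the SREBP-1a and SREBP-1c forms cannot be told apart in them.

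Mlxipl (chr5:135089890-135138382, plus strand) had values of 5.59, 5.86 and 5.78 in LFD, 5.24, 4.86 and 6.21 in HFD, and 5.75 and 5.39 in ob/ob mice. The HFD mice held both the lowest and the highest value of the 8 mice. The log2 difference from LFD was -0.31 in HFD (95% interval -1.13 to 0.50) and -0.17 in ob/ob (-1.09 to 0.74). Without HFD replicate 2 the HFD difference was -0.023, and without HFD replicate 3 it was -0.70.

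Set against each other, the obese groups had 7 of the 10 members higher in ob/ob mice (51.7% of all genes were), with a median log2 difference of 0.34 beside 0.012 over all genes. No member had an unadjusted p under 0.05, against 3.91% of all genes. Fasn, Acly and Scd2 lay higher in both ob/ob mice than in all HFD mice, 3 of 10 members against 7.92% of all genes in that direction. With 2 mice in 1 group and 3 in the other, and members that share a pathway, these are descriptions of the 5 mice.

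Across the 8 mice, Acsbg1 and Me1 followed each other most closely of all pairs of members (Pearson r 0.944, a description over 8 mice of 3 groups), and both ran against Scd1 (r -0.813 and -0.852). Fasn, Acly and Acaca ran together more loosely, with r between 0.602 and 0.626. Among the other 15046 genes of the table, the patterns most like that of Acsbg1 included those of Tmem117 (r 0.996) and Endod1 (0.994). Those most like Me1 included Ube2t (0.997) and Zdhhc15 (0.991), and most like Scd1 were C2cd4b, Peg13 and Rfng, with r from 0.983 to 0.986. No p is given, because the group differences and the makeup of the tissue enter each r.

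The makeup of the tissue differed widely between these mice, and in bulk RNA fewer cells of a type and less RNA per cell cannot be told apart. The label pancreas was borne out by acinar genes such as Cpa1 and Pnlip, with Pnlip between 16.86 and 20.95 over the 8 mice. The mean of 29 acinar genes was 17.05, 17.34 and 17.61 in LFD, 17.41, 15.28 and 13.39 in HFD, and 16.68 and 13.71 in ob/ob mice. HFD replicates 2 and 3 and ob/ob replicate 2 were thus far below the rest, while HFD replicate 1 stood among the LFD mice. All 29 acinar genes had lower group means in HFD and in ob/ob than in LFD.

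The 3 mice with the lowest acinar means, all of them obese, had the highest values of Acsbg1 and Me1 and the lowest of Scd1. Within LFD, Scd1 went the other way, at 12.03, 11.58 and 11.00 for acinar means of 17.05, 17.34 and 17.61. Because the low acinar means were all in obese mice, a fit with this covariate cannot fully separate acinar content from group. With the acinar mean as a covariate in limma, the HFD against LFD difference was 1.92 for Acsbg1 (adjusted p 0.246), 0.61 for Me1 (adjusted p 0.509) and -0.99 for Scd1 (adjusted p 0.366). In ob/ob against LFD that of Acsbg1 was 0.39 (adjusted p 0.821), that of Me1 0.21 (adjusted p 0.877) and that of Scd1 -0.56 (adjusted p 0.630), by the same fit. HFD replicate 1, with its acinar mean inside the LFD range, had an Acsbg1 value above and an Scd1 value below all LFD mice. Its Me1 value of 7.53 was within their range. The makeup of this mouse was not that of LFD, since its macrophage mean of 9.69 and fibroblast mean of 9.62 were above those of all LFD mice. The part of tissue makeup in these values was not tested.

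**Figure D4:**
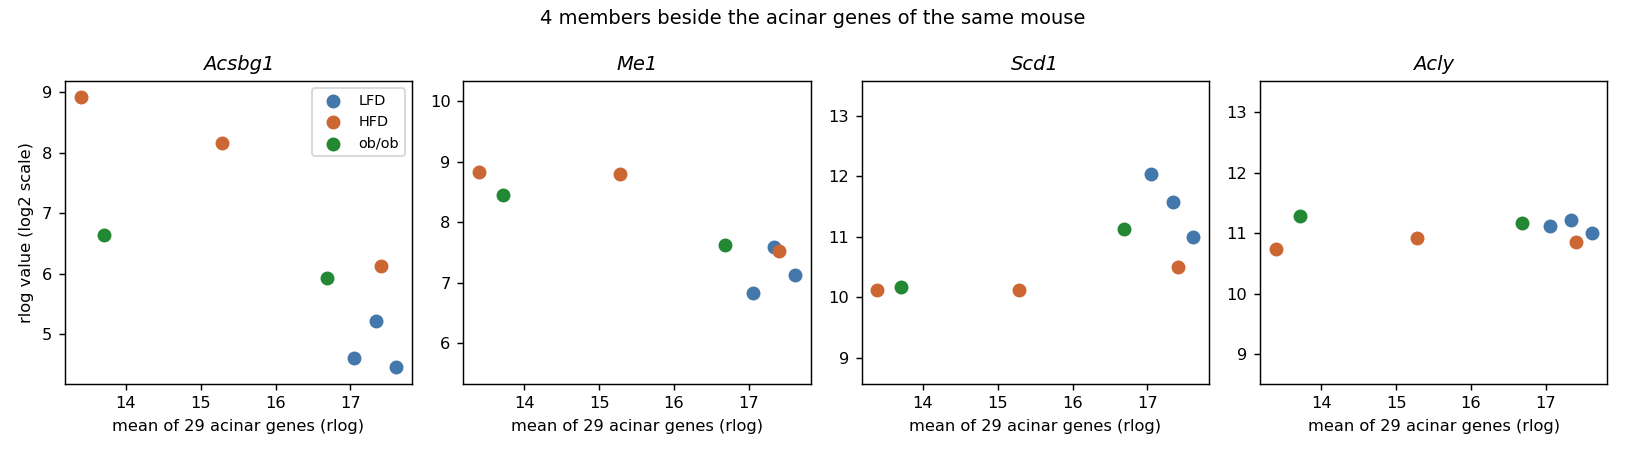
rlog value (log2 scale, y axis) of Acsbg1, Me1, Scd1 and Acly in each mouse against the mean rlog value of 29 acinar genes in the same mouse (x axis), coloured by group. The 3 mice under an acinar mean of 16 have Acsbg1 values of 6.65, 8.16 and 8.91, and Acly stays between 10.75 and 11.28 in all mice.

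Other cell types also moved with the groups. Of 10 duct and tumour epithelium markers, 7 lay above LFD in HFD and 3 below it, down to a log2 difference of -0.86. There, 5 were higher with an unadjusted p under 0.05 (11.5% of all genes were). In ob/ob mice 7 of the 10 lay below LFD, with a median of -0.076, and 1 was higher and 2 were lower at that level. Krt19 was 11.26 and 11.47 in HFD replicates 2 and 3, the 2 mice with the highest Acsbg1, against 8.95 to 10.05 in the other 6 mice. Krt7 and Epcam were also highest in these 2 mice. Sox9 was not, with 7.03 and 6.85 there against 6.87 to 7.12 in the other 6 mice. The means of the 10 macrophage markers were 8.90 to 9.35 in LFD, 9.69 to 10.48 in HFD and 10.43 to 11.13 in ob/ob mice, and those of the 10 fibroblast markers were 8.86 to 9.34, 9.62 to 10.39 and 10.00 to 10.77. The part of any of these cell types in the differences of Acsbg1, Me1, Scd1 or Scd2 was not tested.

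Fat tissue expresses most of these genes strongly, so adipocyte markers were set beside them. The mean of 12 adipocyte markers was 6.66 to 7.10 in LFD, 6.68 to 7.00 in HFD, and 7.31 and 6.12 in ob/ob mice, with Adipoq between 6.68 and 8.07. The list went both ways in HFD against LFD, from -1.68 to 1.17, with 6 of 12 markers above 0. Lep was 6.20, 5.86 and 6.28 in LFD, 7.27, 7.26 and 7.31 in HFD, and 8.12 and 6.78 in ob/ob mice, so that every obese mouse lay above all LFD mice. It was the only 1 of the 12 markers to do so (9.4% of all genes did), and 1 other marker was lower in every obese mouse. The ob/ob mouse with the lowest adipocyte mean, replicate 2, had the higher Acsbg1, Me1 and Scd2 and the lower Scd1 of the pair. With the adipocyte mean as a covariate the HFD against LFD differences were 3.02 for Acsbg1, 1.25 for Me1 and -1.35 for Scd1, beside 2.97, 1.20 and -1.29 without it; the part of fat cells in these differences was not otherwise tested. Of the defining hepatocyte markers, Alb was at most 6.20 in any mouse and Ttr lay between 6.55 and 9.32. Apoa1 was 13.46 in HFD replicate 3 and at most 6.51 elsewhere. That mouse also had the highest Elovl6, Me1, Acsbg1 and Mlxipl of the 8 mice. The part of other tissue in these values was not tested. Islet markers were higher in ob/ob mice, where 8 of 11 were higher than in LFD with an unadjusted p under 0.05 (11.6% of all genes were).

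Around the members, 77 further genes of the pathway were listed by role, of which 70 were in the table. In HFD against LFD, 31 of them had a difference above 0 and 39 below, with a median of -0.028 beside 0.029 over all genes. An unadjusted p under 0.05 was found for 16 of the 70, with 4 higher and 12 lower, beside the 11.5% and 8.35% of all genes. In ob/ob against LFD, 25 were above 0 and 45 below, with a median of -0.11 beside 0.039, and again 4 were higher and 12 lower, beside 11.6% and 7.18% of all genes. None had an adjusted p under 0.05. In both obese groups against LFD, 3 of the 70 were higher and 17 lower without overlap, beside 1414 and 1362 of all 15047 genes. The list was made with earlier results of these data known.

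**Figure D5:**
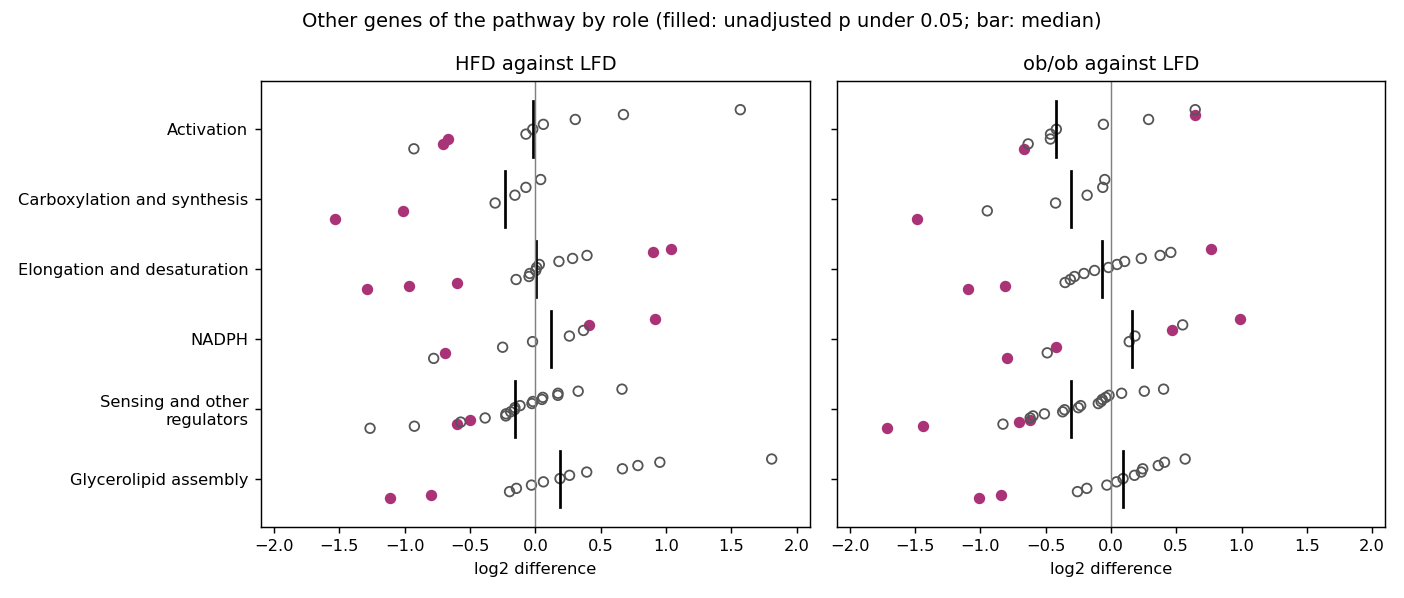
Log2 difference (x axis) of 70 other genes of fatty acid and glycerolipid synthesis in HFD against LFD (left) and ob/ob against LFD (right), 1 point per gene, by role (y axis). Filled points have an unadjusted p under 0.05 and bars mark the median of each role, which is lowest in HFD for carboxylation and synthesis (-0.23) and in ob/ob for activation (-0.42).

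Of the 6 genes of carboxylation and synthesis, 5 were lower in HFD and all 6 in ob/ob. Acacb, the mitochondrial acetyl-CoA carboxylase, whose malonyl-CoA holds back fatty acid oxidation, had values of 9.02, 8.92 and 8.81 in LFD, 8.43, 7.29 and 6.43 in HFD, and 8.33 and 6.54 in ob/ob mice. All obese mice lay below all LFD mice, and the lowest were again the 3 with the lowest acinar means. The log2 difference was -1.53 in HFD and -1.49 in ob/ob, with adjusted p-values of 0.212 and 0.255 (limma). Mecr, the last reductase of mitochondrial fatty acid synthesis, was lower by 2.02-fold in HFD and 1.93-fold in ob/ob, with adjusted p-values of 0.243 and 0.305 (limma).

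Among 14 elongases, desaturases and their partners, Fads6 had values of 8.21 to 8.44 in LFD, 6.30 to 7.59 in HFD, and 7.84 and 6.56 in ob/ob mice, with log2 differences of -1.29 and -1.09 (adjusted p 0.191 and 0.250, limma). Fads2, the delta-6 desaturase of polyunsaturated fatty acids, had log2 differences of -0.97 in HFD and -0.81 in ob/ob (adjusted p 0.180 and 0.225, limma), and all obese mice lay below all LFD mice. Elovl7, an elongase of saturated very long chains, went with the HFD group: it was 6.07 to 6.28 in LFD, 6.51 to 7.58 in HFD, and 6.45 and 5.51 in ob/ob mice, a log2 difference of 1.04 in HFD with an adjusted p of 0.204 (limma).

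Among 8 other genes of NADPH supply and its sugar pathway, Pgd, the second dehydrogenase of the pentose phosphate pathway, lay with Me1. Its mean was 7.88 in LFD mice, its values were 8.15, 8.95 and 9.28 in HFD, and 8.50 and 9.23 in ob/ob mice. All obese mice lay above all LFD mice, with log2 differences of 0.92 in HFD and 0.99 in ob/ob (adjusted p 0.203 and 0.224, limma). Mthfd1, a folate enzyme, was lower by 1.61-fold in HFD and 1.73-fold in ob/ob (adjusted p 0.211 and 0.223, limma), and Me3, a mitochondrial malic enzyme, had a difference of -0.78 in HFD with overlapping groups.

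In the group of sterol and carbohydrate sensing and other regulators, 14 of 20 genes were below LFD in HFD and 17 of 20 in ob/ob. Prkaa2, a catalytic subunit of AMP-activated kinase, which inhibits the acetyl-CoA carboxylases, was 8.51 to 8.85 in LFD, 6.78 to 8.43 in HFD, and 8.05 and 5.98 in ob/ob mice, with log2 differences of -1.27 and -1.72 (adjusted p 0.252 and 0.226, limma). Thrsp (Spot 14), a protein that goes with lipogenesis in liver and fat, was 5.93 to 6.53 in LFD, 4.50 to 5.78 in HFD, and 5.73 and 3.69 in ob/ob mice. Its log2 differences were -0.93 and -1.44, with adjusted p-values of 0.354 and 0.256 (limma).

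Of the 9 activating enzymes and thioesterases, Acsl1 was lower by 1.63-fold in HFD and 1.58-fold in ob/ob without overlap (adjusted p 0.193 and 0.234, limma). Acsl5 had a difference of 1.57 in HFD that rested on replicate 3, with values of 9.35, 10.18 and 12.62 in that group beside 8.90 to 9.50 in LFD. Acsl6 had a difference of -0.93 in HFD with overlapping groups. In glycerolipid assembly, Gpam, the mitochondrial acyltransferase that starts triglyceride synthesis, was 9.47 to 9.74 in LFD, 8.10 to 9.19 in HFD, and 9.12 and 8.14 in ob/ob mice. Its log2 differences were -1.11 and -1.01 without overlap (adjusted p 0.185 and 0.231, limma). Lpin3 was lower by 1.74-fold in HFD and 1.79-fold in ob/ob (adjusted p 0.202 and 0.225, limma), and Mogat2 had a difference of 1.81 in HFD that came from replicate 3 (7.55, against 2.71 to 4.29 in the other 7 mice).

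HFD replicate 1 also weighed on this wider list. Without that mouse, 15 of the 70 genes had an adjusted p under 0.05 in HFD against LFD, beside 18.7% of all genes. With the acinar mean as a covariate, 4 of 70 instead of 16 had an unadjusted p under 0.05 in ob/ob against LFD, while over all genes the share was 9.84% instead of 18.8%. The genes named from this list were those with the largest absolute difference in each role and comparison.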

How the data were processed

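Total RNA of pancreas from 8 male mice was extracted with TRIzol, passed at a RIN above 7 and was sequenced as paired-end reads on an Illumina HiSeq instrument. Per the methods and the submitters' processing notes, the authors checked reads with FastQC, quantified Gencode M18 transcripts (GRCm38.p6) with Salmon 0.11.3, summed them to genes with tximport and applied the rlog function of DESeq2 1.22.2. The deposited values are these rlog values, on a log2 scale and corrected by the authors for library size, for 15047 symbols. The filter on genes and the blind option of rlog are not given in the sources used here. Counts were not used here, so the depth per mouse is unknown, and no counting interval is given.

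Mice were grouped by sample titles. limma 3.58.1 in R 4.3.3 was fitted to all genes and all 8 mice with a mean per group and a variance trend, and p-values were adjusted over all genes with the Benjamini-Hochberg method. The fit was first tested on simulated data for HFD against LFD, with 50 changed genes at each of 4 sizes. At an adjusted p under 0.05 it recovered 2% of genes changed by 2 residual SDs and 32% at 4 SDs. It recovered 94% at 8 SDs and 100% at 16 SDs, with 7 false calls. The simulated noise was drawn independently for each gene, whereas in the real mice many genes shift together with the makeup of the tissue. These rates therefore may not hold for the real values. Fold is 2 raised to the log2 difference. The members and all gene lists were chosen with earlier results of these data known, so no list was tested as such, and no p was adjusted over a list alone. The genes named from the wider pathway list were the 2 with the largest absolute log2 difference in each role. This was done for HFD against LFD and for ob/ob against LFD. Krt19, Krt7, Epcam, Sox9, Apoa1, Alb, Ttr, Adipoq, Lep, Cpa1 and Pnlip come from the defining markers. Likeness was the Pearson r over the 8 mice, with genes named from the top 3; a few items are not reported here. Gene coordinates were read from Gencode M21 (GRCm38). Alternatives were no variance trend, only the groups compared, a mean rlog of at least 5, median centring, quantile normalization, a replicate block, the acinar or the adipocyte mean as a covariate, and each mouse left out in turn.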

Additional observations from a re-analysis of the deposited data

Results flagged for a closer look

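Acly separated the obese groups: all 3 HFD mice lay below the LFD mean of 11.11 and both ob/ob mice above it. The log2 difference of ob/ob from HFD was 0.38 (1.31-fold) with an adjusted p of 1.00 (limma), so the groups on opposite sides of LFD did not pass the test of their difference. Over the alternatives the difference of ob/ob from HFD ranged from 0.33 to 0.44, and the smallest adjusted p was 0.513 (limma, acinar covariate).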

How the results depend on the processing

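Only 2 or 3 mice per group, no counts and no depth limit what these data can show. Of 630 values of single members under an alternative, 595 kept their direction and their side of the threshold, 28 turned their sign, in 14 of 40 member comparisons, and 7 gained an adjusted p under 0.05 (limma). Part of the 630 could not turn sign, because the setting leaves the difference itself unchanged. These settings are no variance trend, only the groups compared, the rlog minimum, and leaving out a mouse of a group not compared. The cause of these shifts was not tested.

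With single mice left out, the genes with an adjusted p under 0.05 (limma) numbered 0 to 2812 in HFD against LFD, 0 to 89 in ob/ob against LFD, 0 to 1 in ob/ob against HFD, and 0 to 3326 in both obese groups against LFD, each maximum but that of the obese groups against one another being reached without HFD replicate 1. Those with an unadjusted p under 0.05 numbered 1480 (without HFD replicate 2) to 5445 (without HFD replicate 1), 752 (without ob/ob replicate 2) to 4075, 369 to 1117, and 2037 to 5824 in the same order. Members with an unadjusted p under 0.05 numbered 2 to 5, 0 to 4 and 0 to 3 in the first 3 comparisons, and those with an adjusted p under 0.05 0 to 3 in HFD against LFD and in both obese groups against LFD. Other pathway genes with an unadjusted p under 0.05 numbered 9 to 28, 0 to 23, 1 to 7 and 12 to 27, and with an adjusted p under 0.05 0 to 15 in HFD against LFD and 0 to 14 in both obese groups. The median difference of ob/ob from HFD was 0.095 to 0.38 for the members and -0.18 to -0.0087 for the pathway genes. Signs turned for Scd2 (-0.17 to 0.18) and Srebf1 (-0.28 to 0.043) in HFD against LFD; for Acaca (-0.17 to 0.25), Elovl6 (-0.36 to 0.13) and Mlxipl (-0.36 to 0.0094) in ob/ob against LFD; for Scd1 (-0.080 to 0.89), Me1 (-0.77 to 0.063) and Mlxipl (-0.15 to 0.52) in ob/ob against HFD; and for Srebf1 (-0.063 to 0.23) and Elovl6 (-0.045 to 0.42) in both obese groups.

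With only the groups compared in the fit, 1 gene in HFD against LFD and 38 in ob/ob against LFD had an adjusted p under 0.05, 4 members had an unadjusted p under 0.05 in ob/ob against LFD, and in ob/ob against HFD 353 genes and 2 pathway genes did. In ob/ob against LFD, 2831 of all genes had an unadjusted p under 0.05 in the main fit. Over the settings other than leaving out a single mouse, that count ran from 1481 to 3934. A mean rlog of at least 5 left 389 genes in ob/ob against HFD. With the adipocyte covariate, 1 gene had an adjusted p under 0.05 in HFD against LFD. With the acinar covariate, 1 gene had one in each comparison of ob/ob with another group and 1 in both obese groups, and the unadjusted counts were 1567, 1481, 1191 and 1657 in the order above; 4 members passed unadjusted in ob/ob against HFD, 4 pathway genes in ob/ob against LFD and 7 in both obese groups, where the median of the members was -0.24. The acinar covariate turned Elovl6 in HFD against LFD (-0.17), Acaca in ob/ob against LFD (-0.22), and Scd2 (-0.051) and Elovl6 (-0.53) in both obese groups. Median centring turned Acaca in ob/ob against LFD (-0.051) and Srebf1 in both obese groups (-0.024). Quantile normalization turned Scd2 in HFD against LFD (0.12), Fasn in ob/ob against LFD (0.020) and Acly in both obese groups (0.11). Under each, 1 member passed unadjusted in ob/ob against HFD, beside 609 and 623 of all genes. Median centring also lowered the share of higher genes among those with an unadjusted p under 0.05, from 57.9% to 48.4% in HFD against LFD, from 61.9% to 52.3% in ob/ob against LFD and from 57.2% to 46.4% in both obese groups.

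Same-numbered LFD and HFD mice did not deviate together (r from -0.28 to 0.11 in 3 pairs), while those of HFD and ob/ob mice had r of 0.59 and 0.30. With 2 ob/ob mice, 1 deviation is the mirror image of the other, so these 2 pairs are not separate evidence. HFD replicate 3 and ob/ob replicate 2, of different number, had r of 0.44. Over all 7 same-numbered pairs r was not above 0.1 throughout, so the replicate numbers were not taken as a pairing. With a replicate block no gene had an adjusted p under 0.05, 3 members had an unadjusted p under 0.05 in ob/ob against LFD, 2 pathway genes did in ob/ob against HFD, and the ob/ob against LFD differences of Elovl6 (0.061) and Mlxipl (0.029) turned sign. The count of all genes with an unadjusted p under 0.05 in ob/ob against LFD stayed within the 1481 to 3934 given above.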
